A study of Mus musculus with 6 samples.

Results

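A set of 9 genes of nucleosome remodelling and acetyl-lysine reading was followed in naive B cells of the mouse spleen: Cecr2, the ISWI ATPases Smarca1 and Smarca5, the ISWI partner subunits Bptf, Baz1a, Baz1b and Baz2a, and the BET proteins Brd2 and Brd3. These are 9 of the 41053 gene names in the count table, matched by symbol. Cecr2 was chosen by its log2 difference and adjusted p between TET2-deficient and wild-type cells in an earlier reading of the same libraries, and the other genes were taken because they are its ISWI partners or related bromodomain genes. The genotype difference of Cecr2 is therefore given as a description without a test, and the p-values of the other members in that contrast are given as a description only.

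RNA was sequenced from 3 TET2 Knock-Out and 3 TET2 Wild-Type libraries of C57BL/6 mice, numbered 2, 3 and 4 in each genotype. The cells received no treatment. The labels give no age, sex or pooling of the animals, and do not say which part of Tet2 was deleted or whether the deletion was limited to some cells. Whether the 3 libraries of a genotype come from different mice is not stated, so the p-values describe library-to-library spread only, and that spread may be technical.

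ISWI remodellers use the energy of ATP to slide and space nucleosomes. Their motor subunit, SMARCA5 (SNF2H) or SMARCA1 (SNF2L), works with a large partner that gives each complex its place and role. CECR2 pairs with SMARCA1 in the CERF complex and has also been found with SMARCA5, and BPTF is the large subunit of NURF. Many of these partners, like the BET proteins, carry a bromodomain, a fold that binds acetylated lysine on histones.

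Library totals lay between 35101788 and 45401781 counts. Levels are given as CPM, a gene's counts scaled to a common library size after TMM scaling, and levels are compared between genes as CPM per kb of summed exon length. The cells were B cells by their markers: all 9 B-cell markers found in the table were present, with a summed level of 20404 to 23797 CPM in knockout and 19261 to 20601 CPM in wild type. Of the 8 T-cell markers, the receptor chain genes Cd3d, Cd3e and Cd3g stayed below 1 CPM in every library. The T-cell markers summed to 49.2 to 66.0 CPM in knockout and 46.9 to 50.8 CPM in wild type, of which Lck alone gave 48.5 to 64.8 and 46.2 to 50.1 CPM, and the other 7 were below 1 CPM in every library. Plasma cell markers summed to 148 to 171 CPM in knockout and 128 to 168 CPM in wild type, with Xbp1 the largest part. Germinal centre markers summed to 158 to 192 and 177 to 199 CPM, with Bcl6 the largest part. Markers of monocytes, macrophages and neutrophils summed to 26.1 to 36.4 and 29.5 to 33.6 CPM. No tested marker of the 10 lists was called between genotypes, where edgeR called 0.404% of all tested genes. Only 2 of the 8 T-cell and 3 of the 6 natural killer markers were tested, so nothing on cell composition is read from this. The part of other cells in the results below was not tested. In each genotype library 4 was set off from libraries 2 and 3 on a second principal component with 33.9% of the variance. On the first component, with 40.7%, wild-type libraries 2 and 3 were at 21.5 and 17.9 and wild-type library 4 at 2.53. Knockout libraries 2, 3 and 4 were at −17.1, −12.2 and −12.6, so wild-type library 4 lay between the genotypes there. Sex-linked transcripts differed with genotype. Y-linked Kdm5d was at 23.3 to 34.9 CPM in knockout and at most 0.0571 CPM in wild type, and Xist was at 802 to 887 against 1443 to 1537 CPM, so genotype and sex composition cannot be told apart in any genotype comparison below. Tet2 was read in all libraries, at up to 64.8 CPM in knockout and up to 83.3 CPM in wild type, with groups that overlapped, and since the counts cover all exons this does not check the labels.

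Cecr2 (chromosome 6, 120666369 to 120771190, plus strand, GRCm38) was the member whose genotypes did not overlap. The level was 80.5, 87.6 and 62.9 CPM in knockout libraries 2, 3 and 4. In wild-type libraries 2, 3 and 4 it was at 41.0, 42.2 and 27.4 CPM. The lowest knockout library lay above the highest wild-type library, and within each genotype library 4 was the lowest. The means were 77.0 ± 12.7 CPM in knockout against 36.8 ± 8.23 CPM in wild type (SD, n = 3 each), a 2.09-fold difference (log2 1.06, SE 0.17). These values rested on 958 to 3639 counts per library. Within the library sets the log2 differences were 0.96 for the pair numbered 2, 1.05 for the pair numbered 3 and 1.19 for the pair numbered 4. The labels do not pair libraries by number, and these values repeat the difference that chose Cecr2. No other gene name shared exon bases with Cecr2. In bulk RNA, fewer cells of a type and less RNA per cell cannot be told apart.

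In both genotypes Cecr2 was the least abundant of the 8 members that could be tested. Per exon length it stood at 2.77 ± 0.619 CPM per kb in wild type, above 33.9% of the 13604 tested genes, and at 5.79 ± 0.956 CPM per kb in knockout (SD, n = 3 each). In wild type the order of mean levels per kb was Brd2, Baz2a (46.6 ± 6.71), Baz1a (41.6 ± 2.10), Bptf (31.0 ± 2.66), Baz1b (28.6 ± 1.01), Brd3 (11.3 ± 0.215), Smarca5 (10.4 ± 1.05) and Cecr2 (CPM per kb, SD, n = 3 each). The libraries of Baz2a and Baz1a overlapped, as did those of Bptf and Baz1b and those of Brd3 and Smarca5, while the other neighbours in this order did not overlap. Per length the level of Cecr2 relative to Smarca5 was 0.562, 0.620 and 0.397 in knockout libraries 2, 3 and 4. In wild type the same ratio was 0.321, 0.315 and 0.177. The ranges did not overlap, and Cecr2 stayed below Smarca5 in every library. Since Cecr2 was chosen by its genotype difference and Smarca5 differed little, the gap in these ratios largely restates that choice.

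**Figure D1:**
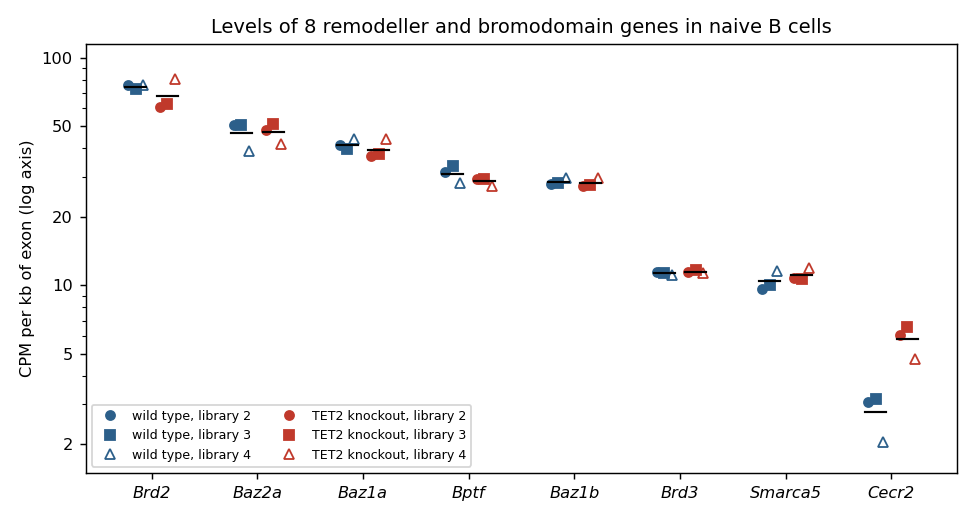
Level of each tested member in CPM per kb of exon (log axis), with 1 point per library (wild type blue, TET2 knockout red, open triangles for libraries numbered 4) and a bar at each group mean. Brd2 was the most abundant and Cecr2 the least abundant, and Cecr2 was the gene whose genotypes did not overlap. Cecr2 was chosen by its genotype difference.

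Smarca1 (X chromosome, 47809368 to 47892974, minus strand), the ATPase of the CERF and NURF complexes, was at the edge of detection. It had 1 count over all 6 libraries, in knockout library 4, and was not tested. The exact 95% Poisson interval of that count reached 5.57 counts, or 0.0224 CPM over the 6 libraries pooled, and covers counting error only. The paralogue Smarca5 (chromosome 8, 80698507 to 80739497, minus strand), the ATPase of ACF, CHRAC, WICH and NoRC, stood at 83.7, 82.6 and 92.7 CPM in knockout libraries 2, 3 and 4. In wild-type libraries 2, 3 and 4 it was at 74.7, 78.1 and 90.2 CPM. The genotypes overlapped, and library 4 was the highest of each. The log2 difference of Smarca5 was 0.09 (SE 0.09), with an edgeR adjusted p of 0.686.

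The start regions of these paralogues are printed to show how the barely detected and the expressed ATPase gene differ in CpG, the dinucleotide whose methylated cytosine TET2 oxidizes. Each runs 5′ to 3′ on the gene's strand from 250 bases before to 50 bases after the RefSeq start (GRCm38.p6), with every CG in capitals. CG reads the same on both strands. Methylation was not measured here, and a link between CpG and the levels of these genes was not tested.
Smarca1: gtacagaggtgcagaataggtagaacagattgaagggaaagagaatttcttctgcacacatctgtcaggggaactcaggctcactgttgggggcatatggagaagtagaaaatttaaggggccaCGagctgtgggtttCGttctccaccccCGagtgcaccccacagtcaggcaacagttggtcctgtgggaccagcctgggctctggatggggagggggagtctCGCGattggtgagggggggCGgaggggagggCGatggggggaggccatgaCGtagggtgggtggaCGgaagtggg
Smarca5: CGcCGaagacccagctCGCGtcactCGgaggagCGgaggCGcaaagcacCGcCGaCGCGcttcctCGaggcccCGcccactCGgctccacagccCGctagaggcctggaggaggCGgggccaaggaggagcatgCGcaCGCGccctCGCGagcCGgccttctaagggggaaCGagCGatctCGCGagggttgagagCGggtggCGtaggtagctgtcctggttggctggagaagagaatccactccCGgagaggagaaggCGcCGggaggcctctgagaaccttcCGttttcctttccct
The Smarca1 region (chrX:47892564-47892863, minus strand) held 9 CG and the Smarca5 region (chr8:80739410-80739709, minus strand) 32. Of all 32851 RefSeq regions of this length, 45.8% held at least 9 and 9.5% at least 32, and the median was 7. Among genes matched by symbol and taken with their most CG-rich start, the median was 23 CG for the 7267 genes with at least 1000 counts over the 6 libraries and 4 CG for the 6388 genes with at most 3 counts. Start regions were at hand for 7 of the 9 members, and none for Cecr2 or Baz1a. They need not sit at the outermost start of the counted gene. The Smarca1 region ends at 47892863 and the counted gene at 47892974. For Brd3 these ends are 27475648 and 27507662. The other expressed members among them, Bptf, Baz1b, Baz2a, Brd2 and Brd3, held 39, 27, 30, 32 and 46 CG, with Brd2 taken at the richest of its 3 starts.

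The large ISWI partner subunits were abundant and lay close together between genotypes. Bptf, the NURF subunit that reads methylated histone H3 and acetylated histone H4, was at 380 to 410 CPM in knockout and 391 to 464 CPM in wild type. Baz1a (ACF1), the partner of SMARCA5 in ACF and CHRAC, was at 264 to 314 against 283 to 313 CPM. Baz1b (WSTF), its partner in WICH, was at 296 to 321 against 302 to 321 CPM. The groups overlapped for each of these genes, and their log2 differences of −0.11 (SE 0.08), −0.07 (SE 0.09) and −0.02 (SE 0.07) had edgeR adjusted p of 0.602, 0.737 and 0.946. The direction of Baz1b turned when knockout library 2, knockout library 3 or wild-type library 4 was left out.

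Baz2a (TIP5), the subunit of NoRC that acts on ribosomal DNA, was not called between genotypes and was called between library numbers, as given below. The level was 402, 430 and 350 CPM in knockout libraries 2, 3 and 4. In wild-type libraries 2, 3 and 4 it was at 422, 423 and 325 CPM. Library 4 was the lowest in each genotype. The genotype difference was log2 0.01 (SE 0.12, edgeR adjusted p = 0.971), and its sign turned with scaling to library size alone.

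Of the BET genes, Brd3 had the narrowest spread of all members, at 83.4 to 85.5 CPM in knockout and 81.1 to 84.2 CPM in wild type. Its log2 difference was 0.03 (SE 0.06, edgeR adjusted p = 0.890), and the sign turned with scaling to library size alone. Brd2, a BET protein that binds acetylated histone H4, was the most abundant member, at 67.9 ± 10.9 CPM per kb in knockout and 74.7 ± 1.73 CPM per kb in wild type (SD, n = 3 each). Brd2 stood at 442, 456 and 586 CPM in knockout libraries 2, 3 and 4. In wild-type libraries 2, 3 and 4 it stood at 551, 530 and 552 CPM. Knockout libraries 2 and 3 lay below every wild-type library and knockout library 4 lay above them all.

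The log2 genotype difference of Brd2 was −0.14 (SE 0.11, edgeR adjusted p = 0.614) over all libraries. In libraries 2 and 3 alone the fit put it at −0.27, past the threshold (edgeR adjusted p = 0.00577), in a fit that called 24.0% of 13800 tested genes, with 10.4% of tested genes lower in knockout. In the pair numbered 4 it was 0.09. The difference between these values, tested as an interaction term after they were seen, was 0.35 (SE 0.11, edgeR adjusted p = 0.115) and did not pass. That term was called for 1.19% of tested genes.

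Across the family, 1 of the 8 tested members, Cecr2, was called in the genotype contrast (edgeR adjusted p under 0.05), where 0.404% of the 13604 tested genes were called and 0.184% were called higher in knockout. Since that call chose Cecr2, nothing is read from the count. The call was lost without knockout library 2 or 3 or wild-type library 2 or 3, where the log2 difference was 0.96 to 1.16. The remaining 7 tested members had log2 differences between −0.14 and 0.09 and edgeR adjusted p of 0.602 to 0.971. The median over the 8 was −0.00038, with 4 positive, beside a median of −0.01 over all tested genes, of which 48.8% were positive. Genotypes did not overlap for 1 of the 8 members and for 18.5% of all tested genes.

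**Figure D2:**
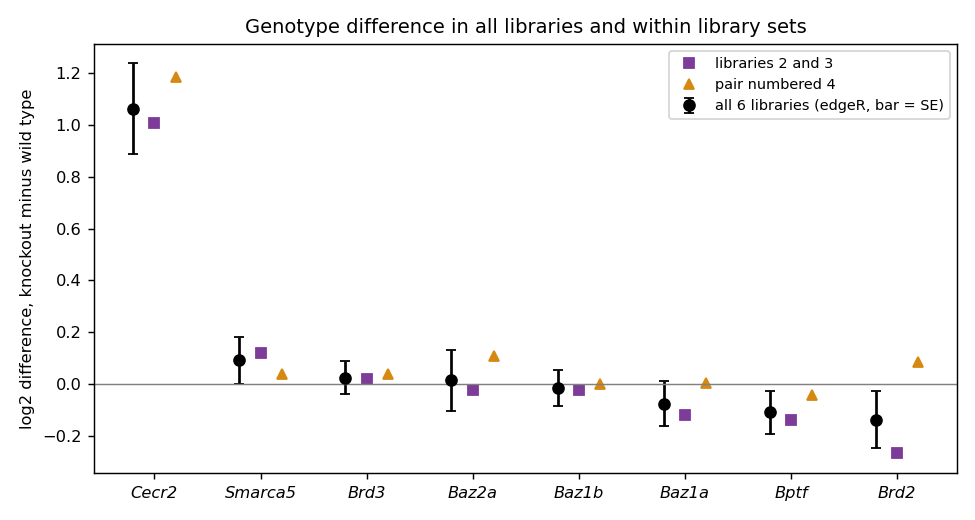
Log2 difference (knockout minus wild type) of each tested member over all 6 libraries (black, bar = SE, edgeR), in libraries 2 and 3 (purple squares) and in the pair numbered 4 (orange triangles). Cecr2 lay between 1.01 and 1.19 in all of these, while Brd2 was at −0.27 in libraries 2 and 3 and at 0.09 in the pair numbered 4. Cecr2 was chosen by its difference over all 6 libraries.

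The libraries numbered 4 were compared with libraries 2 and 3, with genotype in the model. This contrast did not choose the members, but the split by number follows the separation already seen on the second principal component, so a high share of calls follows from the choice of groups. Cecr2 and Baz2a fell and Smarca5 rose in the libraries numbered 4. Cecr2 was at 70.4% of its level in libraries 2 and 3 (log2 −0.51, SE 0.07, edgeR adjusted p = 0.00251). Within genotypes its log2 difference was −0.41 in knockout and −0.59 in wild type. Baz2a was at 80.6% (log2 −0.31, SE 0.06, edgeR adjusted p = 0.0107), with −0.25 in knockout and −0.38 in wild type. Smarca5 was 1.15-fold higher (log2 0.20, SE 0.06, edgeR adjusted p = 0.0394), with 0.15 in knockout and 0.24 in wild type. In this contrast 14.8% of all tested genes were called, 7.83% higher and 6.95% lower, and the labels do not say how the libraries numbered 4 differed from the others.

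The call of Cecr2 between library numbers passed in all 6 fits that left out 1 library (log2 −0.60 to −0.42, edgeR adjusted p at most 0.0238). That of Smarca5 was lost without knockout library 3 or without wild-type library 2, 3 or 4 (edgeR adjusted p up to 0.165). That of Baz2a was lost without knockout library 3 or wild-type library 3 or 4 (up to 0.0671). Baz1a at log2 0.17 and Brd2 at 0.21 were not called (edgeR adjusted p = 0.0663 and 0.0959), and both passed without wild-type library 4 (0.0431 and 0.00388). In that fit knockout library 4 was alone in its arm and was assumed to vary like the other libraries, as was the remaining library 4 in each fit that left one out. For Brd2 the log2 difference of library 4 from libraries 2 and 3 was 0.38 in knockout and 0.03 in wild type.

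**Figure D3:**
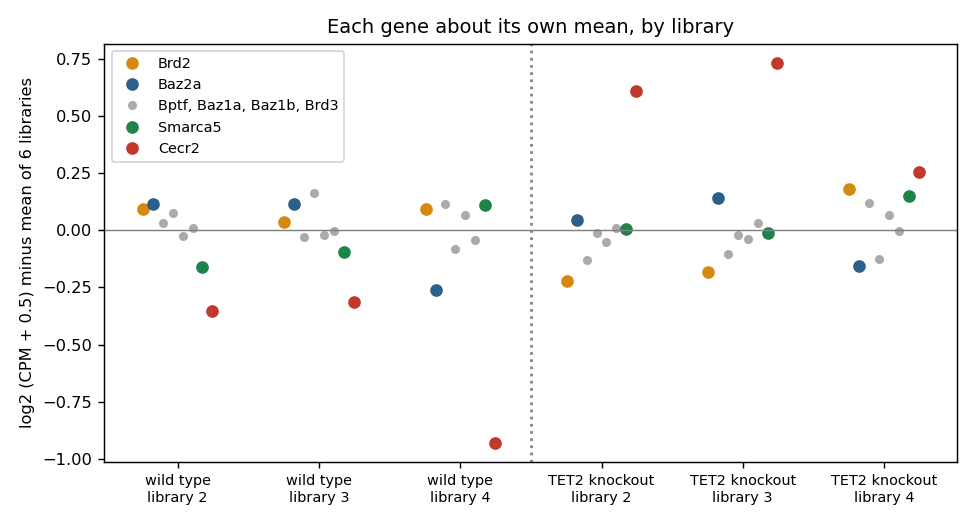
Log2 (CPM + 0.5) of each tested member minus its own mean over the 6 libraries, by library. Cecr2 (red) was above its mean in all knockout libraries and below it in all wild-type libraries, and was lowest in library 4 of each genotype, where Baz2a (blue) was also lowest and Smarca5 (green) highest. The genotype difference of Cecr2 is the one that chose the gene.

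Genes whose levels ran most like Cecr2 over the 6 libraries were sought among 9699 named genes, by the root-mean-square difference of log2 levels centred on each gene's mean. The nearest were Chic1 (0.20), Lgals3bp, which encodes a galectin-binding glycoprotein (0.22), Kcnn4, a calcium-activated potassium channel gene (0.23), Rap1gap2, a GTPase activator of Rap1 (0.24), and the carboxypeptidase gene Cpd (0.24). Their log2 genotype differences lay between 0.75 for Kcnn4 and 1.02 for Chic1, a direction and size that the choice by likeness to Cecr2 largely fixes. Of the other members Baz2a was the nearest to Cecr2, at rank 1609 (0.53), and Smarca5 was at rank 4494 (0.59). These likenesses come from the same 6 libraries and carry no test.

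Of the 3 nearest tested genes on either side of Cecr2 on chromosome 6, 0 of 6 were called between genotypes by edgeR, against 0.404% of all tested genes. Cecr5 and Slc25a18 were under 0.05 in unadjusted p, 2 of 6 against 13.4% of all tested genes. Upstream, Cecr5 (135.0 kb away) was at log2 −0.32 (SE 0.09, edgeR adjusted p = 0.201), Gm20692 (153.1 kb) at −0.30 (SE 0.21, adjusted p = 0.568) and the interleukin-17 receptor gene Il17ra (182.6 kb) at −0.08 (SE 0.08, adjusted p = 0.695). Gm20692 lies within the span of Cecr5 on the opposite strand, so with counts made without strand these neighbours may not be separate. Whether their exons overlap was not worked out. Downstream, the mitochondrial carrier gene Slc25a18 (2.6 kb) was at a mean of 0.965 CPM in knockout against 0.618 CPM in wild type (log2 0.63, SE 0.27, edgeR adjusted p = 0.356). The proton pump subunit gene Atp6v1e1 (24.1 kb) was at −0.01 (SE 0.10) and the mitochondrial BCL2-family gene Bcl2l13 (65.0 kb) at 0.08 (SE 0.07), with edgeR adjusted p of 0.990 and 0.627.

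Other subunits of ISWI complexes were measured as a list of 8 genes, all tested. EdgeR called 0 of them, against 0.404% of all tested genes. DESeq2, which called 2.57% of all tested genes, and limma-voom, which called 0.353%, also called 0. An unadjusted p under 0.05 was found for 2 of the 8 and for 13.4% of all tested genes. The median log2 difference was 0.11, with 5 of 8 positive, against 48.8% of all tested genes. Genotypes did not overlap for 2 of the 8, both higher in knockout, and for 18.5% of all tested genes. Rbbp7 and Pole3 are named for the smallest p of the list in this contrast, which largely fixes their separation. X-linked Rbbp7, a histone-binding subunit of NURF, was at 137, 132 and 120 CPM in the knockout libraries. It was at 98.9, 108 and 112 CPM in the wild-type libraries, each given in the order 2, 3 and 4. The groups did not overlap (log2 0.29, SE 0.08, edgeR adjusted p = 0.196). Pole3, a histone-fold subunit of CHRAC, was at 35.3, 31.6 and 31.2 CPM in knockout and 26.2, 25.6 and 29.5 CPM in wild type, again without overlap (log2 0.27, SE 0.09, edgeR adjusted p = 0.283). With a term for the libraries numbered 4, Rbbp7 passed (edgeR adjusted p = 0.0408), where 4.40% of all tested genes were called. Rbbp7 shares 174 exon bases with Txlng on the opposite strand, and the counting used no strand.

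Other bromodomain genes formed a list of 31, of which 30 were tested and Trim66 was too low. EdgeR called 0, as did DESeq2 and limma-voom, beside 0.404%, 2.57% and 0.353% of all tested genes. An unadjusted p under 0.05 was found for 4 of the 30 and for 13.4% of all tested genes. The median log2 difference was −0.09 and 8 of 30 were positive, against 48.8% of all tested genes. Genotypes did not overlap for 2 genes higher and 5 lower in knockout, and for 18.5% of all tested genes in either direction. Brpf3 and Ep300 are named for the smallest p of the list in this contrast, which largely fixes their difference. Brpf3, a subunit of histone acetyltransferase complexes, was at 66.7, 76.0 and 65.8 CPM in knockout and 84.4, 87.9 and 73.9 CPM in wild type (log2 −0.24, SE 0.09, edgeR adjusted p = 0.321), and knockout library 3 lay above wild-type library 4. The acetyltransferase gene Ep300 was at 338, 346 and 366 CPM in knockout and 402, 412 and 386 CPM in wild type, without overlap (log2 −0.19, SE 0.07, edgeR adjusted p = 0.305). In libraries 2 and 3 alone, where 31 genes of the list were tested, 10 were called lower in knockout and 2 higher. Of all tested genes 10.4% and 13.6% were so called. Those called higher were Sp110 and Sp140, nuclear body proteins, and those called lower included Crebbp, Ep300 and Brd1. Sp140 shares 877 exon bases with Gm17017 on the opposite strand, and the counting used no strand. In libraries 2 and 3 the median of the list was −0.13 with 5 of 30 positive, where 49.3% of all tested genes were positive. In the pair numbered 4, with 1 library per genotype, it was 0.00 with 15 of 30 positive, against 49.9% of all tested genes. The difference between these sets was not tested for the list. With the term for the libraries numbered 4, 1 gene of the list passed, Sp110 at 0.26 (edgeR adjusted p = 0.0331).

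The list of other remodelling ATPases and subunits, from the SWI/SNF, CHD and INO80 families, had 32 tested genes. It held 0 genes called by edgeR, DESeq2 or limma-voom, where 0.404%, 2.57% and 0.353% of all tested genes were called. An unadjusted p under 0.05 was found for 3 of the 32, against 13.4% of all tested genes. The list had a median of −0.04 with 12 of 32 positive, against 48.8% of all tested genes. Genotypes did not overlap for 1 gene higher and 6 lower in knockout, and for 18.5% of all tested genes in either direction. Arid1a and Arid1b are named for the smallest p of the list in this contrast, which largely fixes their separation. Arid1a, the large DNA-binding subunit of the BAF form of SWI/SNF, was at 529, 575 and 590 CPM in knockout and 681, 682 and 612 CPM in wild type (log2 −0.22, SE 0.08, edgeR adjusted p = 0.307). Its paralogue Arid1b was at 161, 160 and 163 CPM in knockout and 191, 176 and 181 CPM in wild type (log2 −0.18, SE 0.06, edgeR adjusted p = 0.305). The genotypes did not overlap for either gene. In libraries 2 and 3 alone 5 genes of the list were called lower in knockout, Arid1a and Arid1b among them. The 1 gene called higher was Ruvbl2, an ATPase of the INO80 complex. Of all tested genes 10.4% were called lower and 13.6% higher. Ruvbl2 shares 310 exon bases with Gys1 on the opposite strand, and the counting used no strand. The median of the list was −0.08 with 13 of 32 positive in libraries 2 and 3, and 0.01 with 16 of 32 positive in the pair numbered 4. All tested genes were positive for 49.3% and 49.9% in these sets, and the difference between the sets was not tested for the list.

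**Figure D4:**
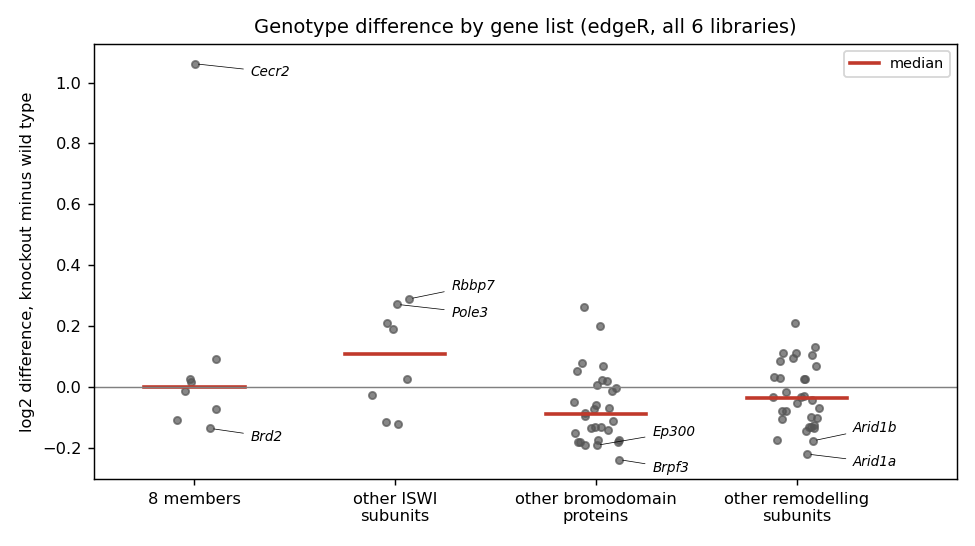
Log2 difference (knockout minus wild type, edgeR, all 6 libraries) of every tested gene in the 4 lists, with a red bar at each median. Cecr2 at 1.06 lay apart from the other genes, which lay between −0.24 and 0.29. Cecr2 was chosen by this difference, which largely fixes its place here.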

How the data were processed

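The deposited values are whole-number counts of paired fragments per gene name, made by the authors with featureCounts 1.5.1 over exons of GENCODE vM3 without a strand option, per the file headers. Reads were aligned with STAR 2.3.0e to GRCm38.p3, per the submitters' processing notes, and per the labels' protocols the library kit was one for stranded mRNA. Without strand, reads of genes that overlap on opposite strands cannot be told apart. The summed exon length of each gene, in bases, stands in the same deposited table. A further 6 count columns match no sample used here and were left out.

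Of 41053 gene names 13604 passed filterByExpr (minimum count 10). Groups came from the sample titles. Knockout and wild type were compared by edgeR 4.0.16 (R 4.3.3) with TMM scaling, robust quasi-likelihood F tests, no covariate and Benjamini-Hochberg adjustment over all tested genes at a threshold of 0.05. The test was checked on simulated counts. SEs were taken as the log2 change over the root of F. CPM used TMM-scaled library sizes, and 3 counts in a library equal 0.0679 to 0.0857 CPM, which covers counting error only. Differences within sets of libraries and centred levels use log2 (CPM + 0.5). Start regions came from RefSeq. The alternatives were other scalings and filters, DESeq2 1.42.0, limma-voom (limma 3.58.1), a replicate block, a term for the libraries numbered 4, libraries 2 and 3 alone, and leaving out each library.

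The members and gene lists were chosen with earlier results of these data known. The genes named are the members, the 2 genes of smallest p in each list without a call, the 5 genes most like Cecr2 and the 3 nearest tested genes on either side of it. Brd1, Crebbp, Sp110, Sp140 and Ruvbl2 were named after their values were seen, and the interaction term was added then.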

Additional observations from a re-analysis of the deposited data

How the results depend on the processing

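The log2 difference of Cecr2, which chose the gene and is given as a description, was 1.01 with scaling to library size only, 1.07 with no filter on low counts (23019 genes tested) and 1.06 with CPM above 1 in 3 libraries (11426 genes tested). It missed the threshold that chose it in these settings and without knockout library 2 or 3 or wild-type library 2 or 3. Leaving out 1 library gave 0.89 to 1.19. The number of members called in the genotype contrast was then 0 with library size only, no filter or the CPM filter, 2 in libraries 2 and 3 alone, and 0 to 1 when 1 library was left out. Lists called 0 genes except as follows. Other ISWI subunits gave 1 with the term for the libraries numbered 4, 3 in libraries 2 and 3 alone and 0 to 1 without 1 library (1 without wild-type library 4). Other bromodomain genes gave 1 with that term and 12 in libraries 2 and 3 alone, and other remodelling genes 6 in libraries 2 and 3 alone. Among all tested genes, 4.40% were called with that term and 24.0% in libraries 2 and 3 alone. Between library numbers, 5 members were called with no filter on low counts and 4 with DESeq2. Leaving out 1 library numbered 2 or 3 gave 1 to 3 (1 without knockout or wild-type library 3). For these fits the share of all tested genes called was not worked out, so nothing is read from these counts. Signs turned for Baz1b without knockout library 2 or 3 or wild-type library 4 (from −0.053 to 0.016 over the fits without 1 library), for Baz2a with library size only (−0.034), in libraries 2 and 3 alone (−0.022) and without knockout library 2 or 3 or wild-type library 4 (−0.099 to 0.093 over the fits without 1 library), and for Brd3 with library size only (−0.020). Some of these fits had fewer samples or a changed number of genes tested, and the cause of the shifts was not tested.

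The labels give no meaning to the library numbers. Deviations from the group mean correlated at 0.075, 0.28 and 0.45 for numbers 2, 3 and 4, and not every library correlated best with its own number, so the numbers were not taken as pairs. The libraries numbered 4, with the highest of these correlations, also stood together on the second principal component. With a replicate block the log2 difference of Cecr2 was 1.07, again as a description.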
